A study of Homo sapiens with 3 samples.

Results

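The genes described here encode 9 enzymes of the synthesis and salvage of uridine and cytidine nucleotides, *CAD*, *DHODH*, *UMPS*, *CTPS1*, *CTPS2*, *UCK1*, *UCK2*, *UCKL1* and *UPP1*. They were picked by symbol from the 29960 genes of the deposited table, and each symbol gave 1 row. The 5637 line is an established human bladder cancer line from muscle-invasive disease. The parental cells (5637P, listed as WT) were compared with gemcitabine-resistant cells (5637GR), and both were untreated at harvest and grown in RPMI medium with serum. Resistance had been raised by repeated rounds of gemcitabine exposure and recovery with increasing drug, which the labels call an acute treatment, and resistant cells were afterwards kept without the drug. RNA came from single-cell clones, so each library stands for 1 clone and not for the population it was taken from. The 3 libraries with a sample label were analysed per library, parental 1, resistant 1 and resistant 2. The authors' group means, KR_P and KR_R, were used as a second description, and they also contain libraries not analysed here.

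Pyrimidine nucleotides reach the cell by 2 routes that meet at uridine monophosphate (UMP). In the de novo route, the multifunctional protein CAD joins glutamine, bicarbonate and aspartate into dihydroorotate, the inner mitochondrial membrane enzyme DHODH oxidizes it to orotate, and UMPS turns orotate into UMP with the ribose donor PRPP. CTP synthases then aminate UTP to CTP. In the salvage route, uridine-cytidine kinases phosphorylate ready-made nucleosides, while uridine phosphorylase splits uridine into uracil and ribose 1-phosphate. Gemcitabine is itself a deoxycytidine analog, which is why the supply of cytidine nucleotides is of interest in resistant cells.

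Totals on genes were 14475531, 15836788 and 17461941 reads in parental 1, resistant 1 and resistant 2. Every member had between 309 and 6229 reads in each library, and all 9 passed the filter on low counts. Levels of a gene between libraries are given as CPM, a gene's reads scaled to a library total of 1000000 after TMM normalization. The labelled tissue was checked against markers: 10 of 10 epithelial genes were tested, and *KRT5*, a basal keratin, was called lower in the resistant clones (log2 fold change -4.52, edgeR adjusted p = 0.0006), with a log2 ratio of -2.49 in the authors' group means. Summed epithelial marker CPM was 10126, 7570 and 7758 in the 3 libraries. The leukocyte genes *PTPRC*, *CD3E* and *CD79A* had at most 5 reads in any library, the endothelial gene *CDH5* at most 1, and the fibroblast genes *COL3A1* and *PDGFRB* at most 4. Other markers of these types were higher in resistant 2 than in parental 1. *CD14* of leukocytes had 3, 12 and 18 reads, *THY1* of fibroblasts 0, 9 and 27 and *VWF* of endothelium 6, 3 and 14. The authors' group means gave them log2 ratios of -0.07, -0.38 and 0.41, so *CD14* and *THY1* went the other way there. None of these was called by edgeR, and their part in the members' values was not tested. The collagen genes *COL1A1* and *COL1A2* had 835 to 1591 reads. *COL1A1* stood at 113, 96.9 and 61.3 CPM in the 3 libraries and *COL1A2* at 59.3, 57.9 and 84.1. Their log2 ratios in the group means were 0.0001 and 0.37. The markers were read in single-cell clones of a cancer line and not in a mixed tissue. In bulk RNA of a clone, a change in every cell and a change in some cells cannot be told apart.

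The stretches upstream of 4 members are shown because these genes had the largest and smallest fold changes between the groups or the largest difference between the clones. Each is the 250 bases before the first transcription start listed in RefSeq, printed 5′ to 3′ in the direction of transcription on GRCh38.p14, with motif matches on either strand in capitals. *CAD* is at chr2:27217119-27217368 on the plus strand, *UPP1* at chr7:48089004-48089253 on the plus strand, *UMPS* at chr3:124730202-124730451 on the plus strand and *CTPS2* at chrX:16712670-16712919 on the minus strand.
CAD: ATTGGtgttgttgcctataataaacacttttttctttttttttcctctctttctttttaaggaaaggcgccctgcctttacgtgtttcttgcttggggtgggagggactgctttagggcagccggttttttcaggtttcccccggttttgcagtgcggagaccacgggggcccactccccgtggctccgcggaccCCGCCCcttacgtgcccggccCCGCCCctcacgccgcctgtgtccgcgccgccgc
UPP1: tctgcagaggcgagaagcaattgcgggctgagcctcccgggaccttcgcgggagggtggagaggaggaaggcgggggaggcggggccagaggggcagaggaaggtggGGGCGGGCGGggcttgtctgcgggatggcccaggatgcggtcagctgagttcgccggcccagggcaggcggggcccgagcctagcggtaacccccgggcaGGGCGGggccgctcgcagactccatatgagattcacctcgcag
UMPS: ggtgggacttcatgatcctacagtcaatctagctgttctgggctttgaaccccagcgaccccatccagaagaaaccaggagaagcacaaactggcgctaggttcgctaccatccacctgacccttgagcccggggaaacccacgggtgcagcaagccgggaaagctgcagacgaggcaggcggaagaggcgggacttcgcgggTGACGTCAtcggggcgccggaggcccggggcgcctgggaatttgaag
CTPS2: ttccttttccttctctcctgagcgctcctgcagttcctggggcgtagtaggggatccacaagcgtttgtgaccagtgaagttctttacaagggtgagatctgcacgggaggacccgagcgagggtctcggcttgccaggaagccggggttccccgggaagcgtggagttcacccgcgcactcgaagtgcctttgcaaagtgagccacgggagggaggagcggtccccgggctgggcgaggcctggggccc
The capitals mark the GC box GGGCGG, the E-box CACGTG, the cAMP response element TGACGTCA and the CCAAT box, matched as exact letters. All 9 members had an entry. A GC box stood in 6 of them, with 2 matches for *CAD*, 3 each for *DHODH* and *UPP1*, 4 each for *CTPS1* and *UCK2* and 1 for *UCKL1*, where overlapping matches count separately. Of 35116 upstream stretches of the same length, 42.6% held one. The E-box, the site of MYC and MAX, occurred only upstream of *DHODH* and *UCKL1* among the 9, against 6.34% of all stretches. The cAMP response element occurred only upstream of *UMPS*, against 1.65%, and CCAAT upstream of *CAD*, *DHODH* and *UCK2*, against 32.0%. *UCK1* and *CTPS2* held none of the 4 motifs in this window. Bases downstream of the start were not searched, nor those before the further starts listed for *CTPS1*, *CTPS2*, *UCKL1* and *UPP1*. The matches describe letters only and say nothing of binding.

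The first question was whether any of these transcripts differed between resistant and parental cells. None of the 9 passed the test. edgeR's quasi-likelihood test called 0 members at an adjusted p of 0.05, with 0 also at an unadjusted p of 0.05, and DESeq2 gave 0 and 0. Over all 15643 genes tested the same fit called 0.876%. The members' adjusted p ran from 0.765 to 0.997. Their log2 fold changes ran from -0.40 for *CTPS2* to 0.50 for *CAD*, with a median of 0.13 beside 0.03 for all genes tested. The 95% intervals reached 0.79 to 0.88 log2 units to either side, a factor of 1.73 to 1.84. Estimates within that width could not pass even at an unadjusted p of 0.05. The intervals are not adjusted for the number of genes tested, so larger changes could go uncalled too. The nucleoside carrier *SLC29A3*, for example, was not called at a log2 fold change of -1.52. With 1 parental library a gene's own spread comes from the 2 resistant clones alone, at 1 residual degree of freedom. The fit pulled it toward the spread pooled over all genes, with a median weight of 8.94 degrees of freedom. The intervals thus rest mostly on the pooled spread, and the parental clone is assumed to vary as the resistant clones do. The p-values measure only the spread between these libraries, and an exact permutation over 3 libraries cannot give less than p = 0.333.

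**Figure D1:**
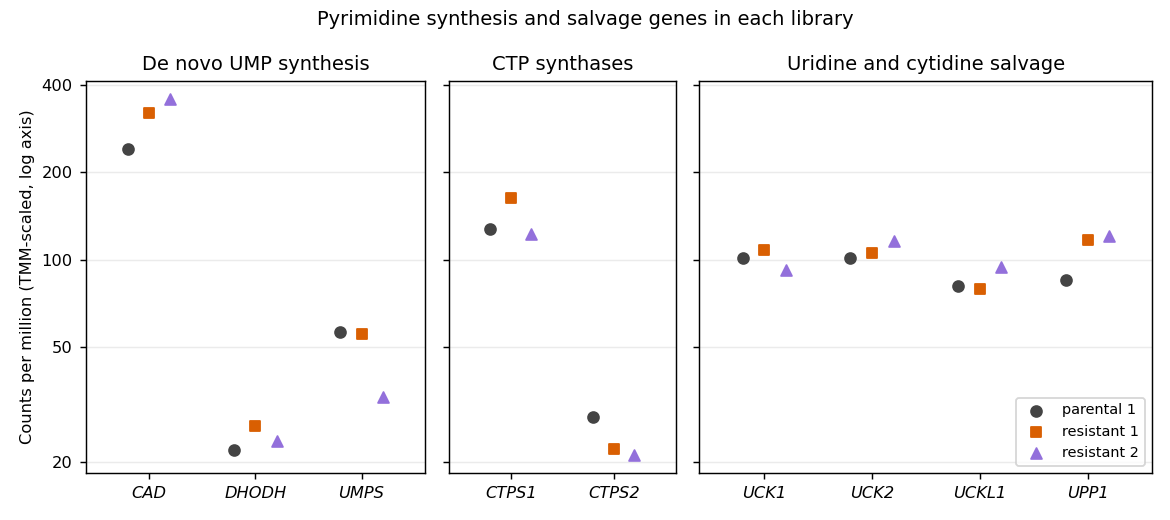
Each point is 1 library, with TMM-scaled CPM on a log axis for the 9 genes grouped by role. *CAD* and *UPP1* lie above the parental point in each resistant library, *CTPS2* lies lower in both, and *UMPS* is lowest in resistant 2.

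*CAD* (ENSG00000084774, hg19 chr2:27440258-27466811, plus strand) carries the first 3 activities of the de novo route. It had 3387, 5254 and 6229 reads in parental 1, resistant 1 and resistant 2, which were 241, 322 and 359 CPM. Both resistant clones were above the parental clone, by 1.34-fold (95% counting interval 1.28 to 1.40) and 1.49-fold (1.43 to 1.56). The fitted log2 fold change was 0.50 ± 0.37 (SE), with an interval from -0.32 to 1.32, and did not pass the edgeR test (adjusted p = 0.765). The authors' means were 3584 normalized counts for the parental and 5100 for the resistant group, a log2 ratio of 0.51. Of the 9677 genes with a mean of at least 10 CPM, 13.0% had a larger log2 fold change than *CAD*. No other member had a log2 ratio above 0.26 in the group means.

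*DHODH* (ENSG00000102967, hg19 chr16:72042487-72058954, plus strand), the mitochondrial step, was counted at 309, 433 and 409 reads, or 21.9, 26.5 and 23.6 CPM. Both resistant values were above the parental one, by 1.21-fold (1.04 to 1.40) and 1.07-fold (0.924 to 1.25), the latter within counting error. Its log2 fold change in the fit was 0.19 ± 0.37 (edgeR adjusted p = 0.950), and the authors' means of 293 and 351 gave 0.26.

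*UMPS* (ENSG00000114491, hg19 chr3:124449213-124464040, plus strand), which completes UMP, had 792, 904 and 581 reads, or 56.3, 55.3 and 33.5 CPM. Resistant 1 lay at 0.983 times the parental level (0.893 to 1.08) and resistant 2 at 0.595 times (0.534 to 0.664), so the low value came from 1 clone. The fitted log2 fold change of -0.34 ± 0.39 did not pass the edgeR test (adjusted p = 0.899). The authors' means, 841 in the parental and 729 in the resistant group, gave a log2 ratio of -0.20. The 3 de novo genes therefore did not share a direction after TMM scaling. *CAD* and *DHODH* were higher in both resistant clones and *UMPS* lower in both, the latter by a margin within counting error in resistant 1. That side depended on the scaling. In the deposited FPKM, reads per gene length and library total without TMM, *UMPS* stood at 20.6 in parental 1 and 21.5 in resistant 1.

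*CTPS1* (ENSG00000171793, hg19 chr1:41445007-41478235, plus strand), the CTP synthase on which proliferating lymphocytes are known to depend, had 1791, 2660 and 2120 reads. These were 127, 163 and 122 CPM, so resistant 1 was 1.28-fold above the parental clone (1.20 to 1.36) and resistant 2 was 0.961 times it (0.902 to 1.02). The clones thus lay on opposite sides of the parental value. In the fit the log2 fold change was 0.16 ± 0.37 (edgeR adjusted p = 0.963). Without resistant 1 only the ratio of resistant 2 to parental 1 remains, -0.06 on the log2 scale. The authors' means of 1824 and 2137 gave 0.23.

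*CTPS2* (ENSG00000047230, hg19 chrX:16606126-16731059, minus strand), the second CTP synthase, had 401, 361 and 366 reads, or 28.5, 22.1 and 21.1 CPM. Both resistant clones were below the parental one, at 0.776 times (0.671 to 0.896) and 0.741 times (0.641 to 0.856). For *CTPS2* the fit gave a log2 fold change of -0.40 ± 0.36 and did not pass the edgeR test (adjusted p = 0.840). The authors' means were 364 and 309, a log2 ratio of -0.24. Among the 9677 genes of at least 10 CPM, 19.2% had a lower log2 fold change. *CTPS2* was the only member at which both clones lay below the parental clone with counting intervals that left out 1, as *CAD* and *UPP1* were the ones above it.

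*UCK1* (ENSG00000130717, hg19 chr9:134399188-134406655, minus strand), a uridine-cytidine kinase, had 1422, 1757 and 1596 reads, which were 101.0, 108 and 92.0 CPM. Resistant 1 was 1.06 times the parental level (0.992 to 1.14), within counting error, and resistant 2 was 0.911 times it (0.848 to 0.979). Its log2 fold change was -0.02 ± 0.35 (edgeR adjusted p = 0.997), whereas the authors' means of 1293 and 1432 gave 0.15. It was the only member whose sign differed between the 3 libraries and the group means. *POMT1*, annotated in the table on the opposite strand and overlapping *UCK1*, had 751, 1042 and 872 reads, and since the sources used here do not state whether counting used strand, reads in the overlap cannot be told apart.

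*UCK2* (ENSG00000143179, hg19 chr1:165796768-165880855, plus strand), the kinase form known to be raised in many tumors, had 1425, 1725 and 2008 reads. At 101.2, 106 and 116 CPM both resistant clones were above the parental one, by 1.04-fold (0.972 to 1.12) and 1.14-fold (1.07 to 1.22). A log2 fold change of 0.13 ± 0.35 was fitted (edgeR adjusted p = 0.971), and the authors' means of 1500 and 1604 gave 0.10. That strand limit holds for *TMCO1*, which overlaps *UCK2* and had 713, 892 and 778 reads.

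*UCKL1* (ENSG00000198276, hg19 chr20:62571186-62587769, minus strand), a kinase-like relative of *UCK1* and *UCK2*, had 1137, 1292 and 1637 reads, or 80.8, 79.1 and 94.4 CPM. Resistant 1 differed from the parental clone by less than counting error (0.979 times, 0.903 to 1.06), and resistant 2 was 1.17-fold above it (1.08 to 1.26). The fitted log2 fold change was 0.10 ± 0.35 (edgeR adjusted p = 0.979). Without resistant 2 only the ratio of resistant 1 to parental 1 remains, -0.03 on the log2 scale. The authors' means of 1145 and 1242 gave 0.12.

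*UPP1* (ENSG00000183696, hg19 chr7:48128225-48148330, plus strand) encodes uridine phosphorylase, which can release ribose from uridine. It had 1198, 1916 and 2097 reads, or 85.1, 117 and 121 CPM. Both resistant clones were above the parental one, by 1.38-fold (1.28 to 1.48) and 1.42-fold (1.32 to 1.53), and the clones differed from each other by less than counting error. The fitted log2 fold change was 0.48 ± 0.36, with an interval from -0.31 to 1.28, and did not pass the edgeR test (adjusted p = 0.769). The authors' means of 1342 and 1552 gave a smaller log2 ratio, 0.21. Of the genes with at least 10 CPM, 13.5% had a larger log2 fold change.

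Across the members, *CAD*, *DHODH*, *UCK2* and *UPP1* (4 of 9) were higher in both resistant clones, which held for 35.2% of all genes tested. *UMPS* and *CTPS2* (2 of 9) were lower in both, against 34.5% of all genes. *CTPS1*, *UCK1* and *UCKL1* were split between the clones. These sides were read from TMM-scaled CPM and were not all kept in the deposited FPKM. There *UCKL1* was above parental 1 in both resistant clones (40.2, 41.8 and 48.0), and *UMPS* was split (20.6, 21.5 and 12.5). By the authors' group means 7 members stood higher and 2 lower in the resistant group. Their median log2 ratio was 0.15, beside 0.01 for the 14630 genes whose mean was at least 10. The sign was that of the 3-library value for 8 of 9 members, though parental 1, resistant 1 and resistant 2 are part of those means. Among genes within 2-fold of a member's level, the smallest called log2 fold change in size was 1.77 for *DHODH*, *UMPS* and *CTPS2*. It was 1.87 for *CTPS1*, *UPP1* and the kinases and 3.24 for *CAD*. These sizes depend on which genes of a level changed, so they are not limits of detection. The SE of *CAD*, 0.37, lay within the members' range, from 0.35 for *UCK2* to 0.39 for *UMPS*.

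**Figure D2:**
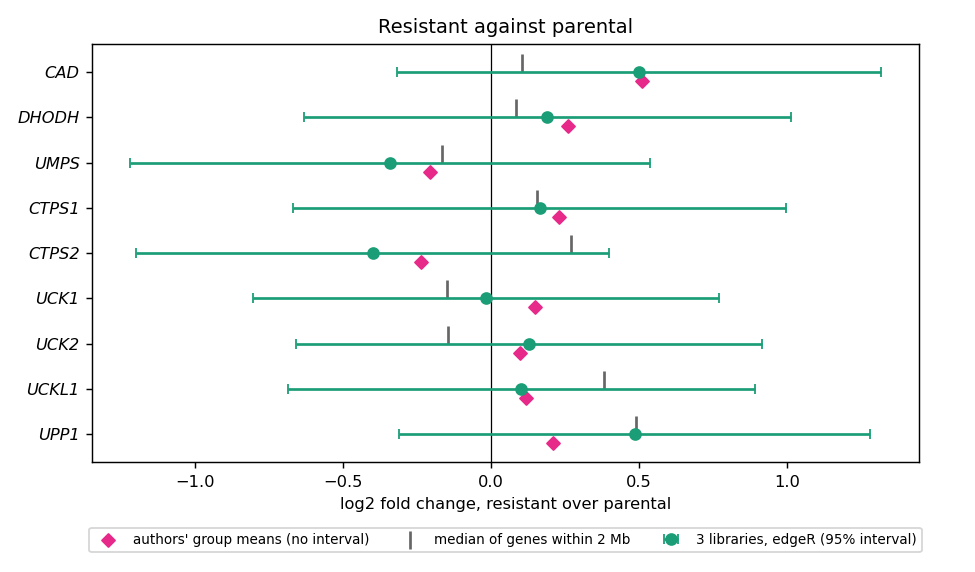
Log2 fold change of resistant over parental for each gene, with the edgeR estimate from 3 libraries and its 95% interval (circles), the authors' group means (diamonds) and the median of tested genes within 2 Mb (ticks). All 9 intervals include 0, and the tick for *UPP1* lies at the gene's own value, which the median within 5 Mb, 0.25, does not reach.

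Genes around each member were set beside it, because a shift shared by a stretch of chromosome would appear in both. The 10 tested genes starting within 2 Mb of *UPP1* had a median log2 fold change of 0.49 beside the 0.48 of *UPP1* itself, and 5 of them had a larger value. Within 5 Mb the median was lower, 0.25 over 48 genes. For *CAD*, 55 neighbours had a median of 0.11 and 13 exceeded it. The 50 neighbours of *UCKL1* had a median of 0.38, above its own value, and 37 exceeded it. *CTPS2* stood lower than its surroundings, with a median of 0.27 over 18 neighbours, of which 16 were above it. *UCK2* stood higher than the 10 genes within 2 Mb, with a median of -0.14 and 1 above it, but lower than the median of 0.19 over 63 genes within 5 Mb. The median around *CTPS2* was -0.0046 over 37 genes within 5 Mb, still above its own value. For *CTPS1* the 47 neighbours had 0.16, as did *CTPS1* itself, and for *DHODH*, *UMPS* and *UCK1* the medians were 0.08, -0.16 and -0.15 over 33, 23 and 48 genes. Less the neighbours' median, the members' log2 differences ran from -0.67 for *CTPS2* to 0.39 for *CAD*. DNA copy number was not measured, and its part in these values was not tested.

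The second question was how far the resistant clones differed from each other. *UMPS* differed most, with resistant 2 at 0.605 times resistant 1 (95% exact counting interval 0.545 to 0.673). It was the only member more than 1.5-fold apart, a distance that 21.7% of the 9677 genes at 10 CPM or more reached. Only 4.77% of those genes had a lower ratio of resistant 2 to resistant 1, and of the 23 neighbours of *UMPS* 2 had one. *CTPS1* followed at 0.751 (0.709 to 0.795), then *UCK1* at 0.856 (0.799 to 0.916). *DHODH* at 0.890, *CTPS2* at 0.955 and *UPP1* at 1.03 had intervals that included 1. On the other side stood *UCK2* at 1.10 (1.03 to 1.17), *CAD* at 1.12 (1.08 to 1.16) and *UCKL1* at 1.19 (1.11 to 1.28). The median absolute log2 ratio between the clones was 0.17 for the members and 0.37 for all genes tested. The latter include genes under 10 CPM, where counting error is larger, so the 2 medians are not alike in level. These intervals cover counting error only, since 1 library per clone gives no test.

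**Figure D3:**
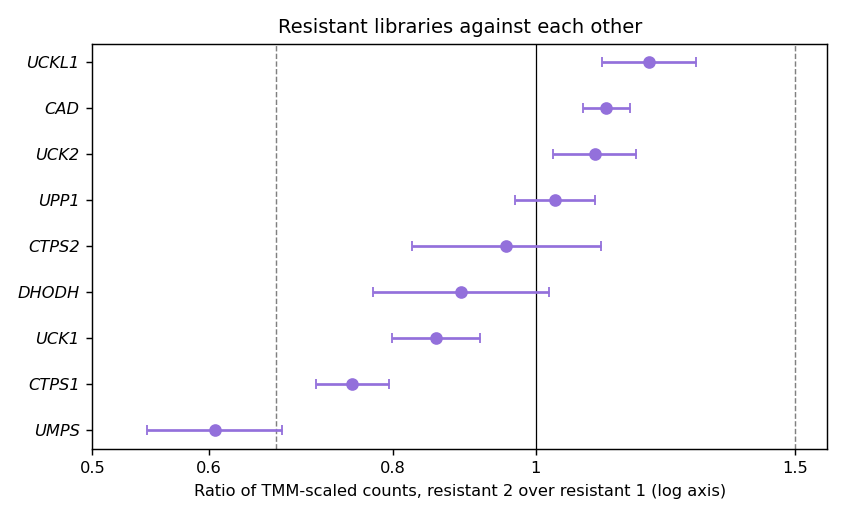
Ratio of TMM-scaled counts of resistant 2 over resistant 1 on a log axis, with 95% exact counting intervals, and dashed lines at 1.5-fold in each direction. *UMPS* at 0.605 is the only gene beyond a dashed line, and *UCKL1* at 1.19 is the highest.

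Levels of different genes were compared per length, as the deposited FPKM, a gene's reads divided by its length and by the library total. Here 5 genes formed an upper group in every library, *UCK1*, *UCKL1*, *CTPS1*, *CAD* and *UPP1*, at 29.7 to 52.5 FPKM. In parental 1 *UCK1* was highest at 43.9 FPKM, then *UCKL1* at 40.2, *CTPS1* at 38.7, *CAD* at 32.2 and *UPP1* at 29.7. In resistant 1 *CTPS1* led at 52.5, and in resistant 2 *CAD* led at 49.1, so the order within this group was not fixed. Below them the order was the same in all 3 libraries. *UCK2* had 21.1, 23.3 and 24.6 FPKM, *UMPS* 20.6, 21.5 and 12.5, *DHODH* 9.66, 12.4 and 10.6, and *CTPS2* 6.41, 5.28 and 4.85. The ranges over libraries of *UCK2* and *UMPS* overlapped, as did those within the upper group, whereas *DHODH* and *CTPS2* overlapped with no neighbour in the order. *CAD* stood above 86.2%, 90.7% and 91.3% of tested genes in the 3 libraries, and *CTPS2* above 52.8%, 47.2% and 46.4%.

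**Figure D4:**
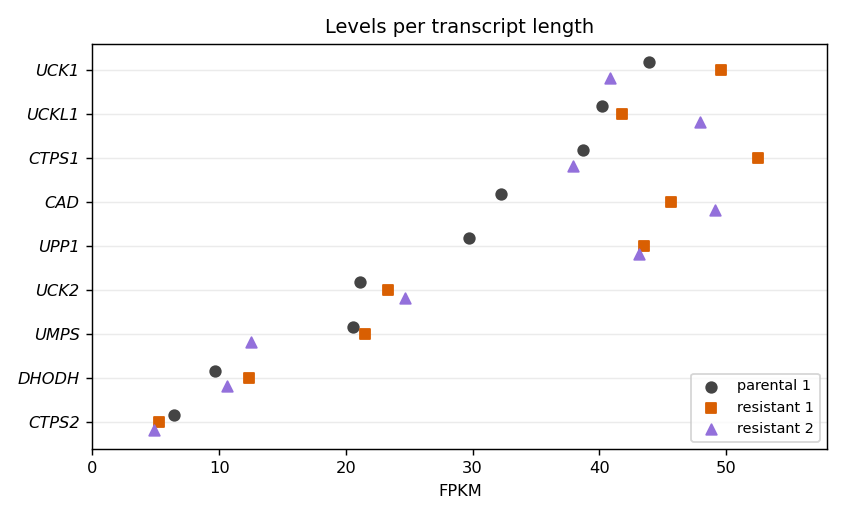
Deposited FPKM of each gene in the 3 libraries, ordered by the parental value. The upper 5 genes change places between libraries, while *UCK2*, *UMPS*, *DHODH* and *CTPS2* keep the lower 4 places in the same order.

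Ratios within a library do not depend on scaling between libraries. Per length, *CAD* was 1.56 times *UMPS* in parental 1 (1.45 to 1.69), 2.13 times in resistant 1 (1.98 to 2.28) and 3.92 times in resistant 2 (3.60 to 4.28). The 3 intervals did not overlap, and the distance between the clones was larger than that from resistant 1 to the parental clone. *CAD* over *DHODH* was 3.33, 3.69 and 4.63. In the salvage route *UPP1* over *UCK1* was 0.677 (0.627 to 0.732), 0.877 (0.821 to 0.936) and 1.06 (0.989 to 1.13), and *UPP1* over *UCK2* was 1.41, 1.86 and 1.75. Relative to both kinases, transcripts of the cleaving enzyme thus stood lowest in parental 1.

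Within the paralogue pairs, *CTPS1* gave 81.7% of the CTP synthase reads in parental 1 (1791 of 2192, Wilson interval 80.0 to 83.3%). It gave 88.1% in resistant 1 (2660 of 3021, 86.8 to 89.2%) and 85.3% in resistant 2 (2120 of 2486, 83.8 to 86.6%). Both resistant shares lay above the parental interval, with the clones themselves apart. *UCK2* gave 50.1% of the reads of *UCK1* and *UCK2* in parental 1 (48.2 to 51.9%), 49.5% in resistant 1 (47.9 to 51.2%) and 55.7% in resistant 2 (54.1 to 57.3%). Only resistant 2 stood apart here. Per length *UCK1* was 2.08, 2.13 and 1.66 times *UCK2*. No test between the groups was made on shares.

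**Figure D5:**
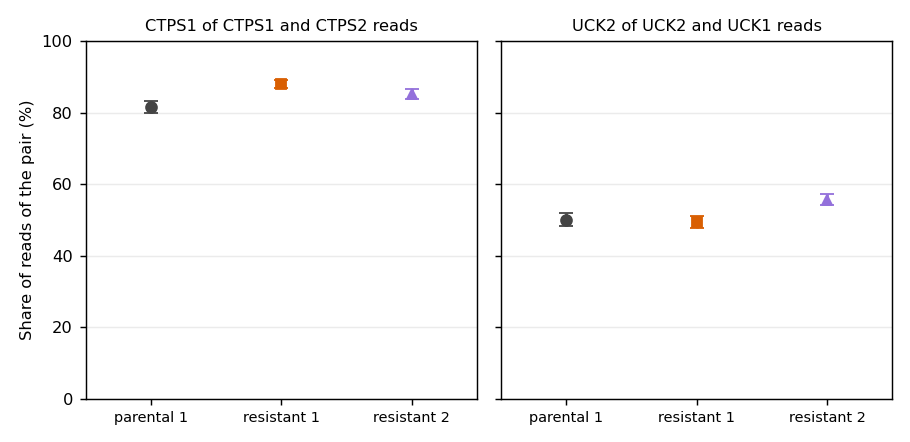
Share of reads in percent given by *CTPS1* within the CTP synthase pair and by *UCK2* within the kinase pair, per library, with 95% Wilson intervals. *CTPS1* lies at 81.7% in parental 1 and at 88.1% and 85.3% in the resistant libraries, while *UCK2* stands near 50% except in resistant 2, at 55.7%.

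The rest of the pathway was described by 7 lists of 44 genes, of which 36 passed the filter on low counts. edgeR called 0 of them at an adjusted p of 0.05 and 3 at an unadjusted p of 0.05, and DESeq2 called 0 and 2. Of all 15643 genes edgeR called 0.876%, and 1517 had an unadjusted p under 0.05. Both resistant clones were above the parental one for 14 of the 36 genes and below it for 8, beside 35.2% and 34.5% of all genes. The median log2 fold change was 0.19, against 0.03 for all genes. Among suppliers of glutamine and aspartate *GLUL*, the enzyme that makes glutamine, had the lowest log2 fold change, -0.95 (edgeR adjusted p = 0.399), with 714, 408 and 331 CPM. Among nucleoside carriers *SLC29A1*, the main equilibrative carrier of the plasma membrane and a route for gemcitabine, had 29.5, 50.7 and 55.2 CPM. Its log2 fold change was 0.85 (edgeR adjusted p = 0.484). *SLC29A3*, a lysosomal carrier, had 24.3, 11.6 and 5.42 CPM, and its log2 fold change of -1.52 was likewise not called (edgeR adjusted p = 0.282), although it was called when no filter was applied. In breakdown and recycling *CDA*, the deaminase that inactivates gemcitabine, was highest at 0.95 (edgeR adjusted p = 0.546), with 91, 203 and 219 reads, and *TYMP*, thymidine phosphorylase, lowest at -0.22. The authors' group means gave -0.10 for *CDA*, so its direction was not that of the 3 libraries.

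The other lists spanned narrower ranges. The list for PRPP, the ribose donor used by *UMPS*, holds PRPP synthetases and their associated proteins. It ran from -0.19 for the synthetase *PRPS2* to 0.12 for the associated protein *PRPSAP1* on the log2 scale. The other synthetase, *PRPS1*, stood at 0.10. Nucleotide kinases ran from 0.17 for *CMPK1*, which phosphorylates UMP and CMP, to 0.40 for the *NME2* identifier. The table names that row as the *NME1-NME2* read-through, and with 37 to 61 reads that overlap *NME1* its value is uncertain. The group means gave it the opposite direction, -0.40. Users of UTP and CTP ran from -0.55 for *CMAS*, which activates sialic acid, to 0.51 for *UAP1*, which makes UDP-N-acetylglucosamine. Among genes that control *CAD*, *MYC*, a transcription factor known to drive it, was highest at 0.59 with 323, 349 and 621 CPM, and *MTOR*, the kinase upstream of CAD phosphorylation, lowest at -0.07. A proliferation list stood the other way: 8 of 8 genes were lower in both resistant clones, from -1.03 for *CCNB1* to -0.08 for *MKI67*, and 0 were called, while 34.5% of all genes were lower in both. In the group means *MCM2* went the other way, at 0.15 against -0.15 in the fit, and *MKI67* was at -0.0030. The list's summed level was 2008, 1743 and 1406 CPM in the 3 libraries, lowest in resistant 2, where *UMPS* was also lowest. The part of cell division in the members' values was not tested.

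The genes whose pair of log2 ratios to the parental clone was nearest to that of *CAD* were *NCDN*, *MPP3* and *GLB1*, at Euclidean distances of 0.012, 0.017 and 0.021 log2 units among 9676 genes of at least 10 CPM. *NCDN* had 67.9, 90.2 and 101 CPM, close to the proportions of *CAD*. Over 3 libraries a gene is described by this pair of ratios only. Within a wider distance of 0.1 of *CAD* lay 100 genes, 1.03%, so a profile near that of *CAD* was not particular to the 3 named.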

How the data were processed

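RNA-seq was analysed in 3 labelled libraries of the 5637 line. Per the paper and labels, poly(A) libraries were made from single-cell clones, sequenced on an Illumina instrument and compared with DESeq2, and the submitters' processing notes name CASAVA 1.8 and hg19. The aligner, the counting program, the annotation and the strand setting are not given in the sources used here. The authors deposited raw read counts per gene without normalization, and FPKM, which equal the counts divided by gene length and library total. They also deposited group means of normalized counts, a signal scaled by size factors that includes libraries not analysed here and is used without SD or n. Deposited log2 fold changes, p-values and adjusted p-values of the authors' comparison were not used, nor were 6 columns of libraries without a sample label.

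Counts of 15643 genes kept by filterByExpr were scaled by TMM (factors 0.974, 1.03 and 0.995) and tested with edgeR 4.0.16 (quasi-likelihood, R 4.3.3), resistant against parental, with Benjamini-Hochberg adjustment over all genes tested and a threshold of 0.05. The fit has 1 residual degree of freedom, and the biological coefficient of variation was 0.281. It called 137 genes, 46 higher and 91 lower. Ratios between libraries used exact conditional binomial 95% intervals and shares used Wilson intervals, both for counting error only, and PCR copies are not independent molecules. Group mean ratios used a pseudocount of 1. Neighbours were tested genes starting within 2 Mb in the table's coordinates. Upstream sequences are from RefSeq on GRCh38.p14 and were never joined to hg19 positions. Alternatives were RLE and upper-quartile scaling, no filter, DESeq2 1.42.0, the group means, leaving out each resistant library, other pseudocounts and windows of 5 Mb; subtraction of the neighbours' median was chosen after seeing the data. The scripts were tested on simulated data. Tables and figures used Python 3.11.15, numpy 2.4.6, pandas 2.3.3, scipy 1.17.1 and matplotlib 3.10.9.

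Members and gene lists were chosen with earlier results of these data known. Named were all 9 members, list genes that were called, the genes with the largest and smallest log2 fold change in each list, and the 3 genes nearest to *CAD*, except 1 list gene that is not reported here. Of the marker genes, *DCN*, *CD68* and *PECAM1* were not analysed here.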

Additional observations from a re-analysis of the deposited data

How the results depend on the processing

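Of 107 values recomputed under an alternative, 82 kept their direction and their side of the threshold, or moved by less than the replicate spread. No member was called under RLE or upper-quartile scaling, without the filter or by DESeq2, whereas the count over all genes rose from 137 to 235 under RLE, 534 of 26434 without the filter and 246 by DESeq2. For the pathway lists, 1 gene, *SLC29A3*, was called without the filter. The members' median log2 fold change of 0.13 was 0.18 under upper-quartile scaling, 0.15 in the group means, 0.0082 after subtracting the neighbours' median and 0.090 to 0.10 when a resistant library was left out. The group means' median less that of all genes was 0.14. Signs turned for *UCK1*, at 0.030 under upper-quartile scaling, 0.15 in the group means and 0.13 less its neighbours. They also turned for *UCKL1* (-0.28) and *UPP1* (-0.0047) less their neighbours. Leaving out a resistant library gave -0.058 to 0.36 for *CTPS1*, -0.13 to 0.090 for *UCK1* and -0.030 to 0.22 for *UCKL1*. *UMPS* kept its sign but moved further, to -0.75 without resistant 1 and -0.024 without resistant 2. These values are ratios of the remaining resistant library to parental 1 and not new fits. The difference in the *UCK2* share, 2.58 percentage points, ranged from -0.51 to 5.66. Within 5 Mb, the neighbours' medians were -0.0046 for *CTPS2*, 0.19 for *UCK2*, -0.03 for *UMPS*, -0.06 for *UCK1* and 0.25 for *UPP1*. The cause of these shifts was not tested. No paired analysis was made, because the clones were derived independently and a shared replicate number does not mark a pair. Each member had at least 309 reads per library, and the parental group had 1 library.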
